A study of Homo sapiens with 12 samples.

Results

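Splicing removes introns from pre-mRNA, and the finished mRNA is then handed to a receptor that carries it through the nuclear pore. The genes described here encode proteins that bind the pre-mRNA, build the spliceosome on it and pass the product to export, and they were followed in 2 human liver cancer lines, Huh7 and HepG2, each with a sorafenib-resistant and a parental form. Genes were chosen by symbol alone: the SR proteins (SRSF with a digit), the hnRNP proteins (HNRNP), the small nuclear ribonucleoproteins (SNRP), the subunits of SF3A and SF3B, the THO complex (THOC), both U2AF subunits, DDX39A and DDX39B, NXF1 and NXT1, and PTBP1 and PTBP2. Pseudogenes, antisense symbols and ALYREF were left out. The rule gave 71 of the 27249 genes under Ensembl identifiers, and 83 pseudogenes and antisense genes with matching names were set aside. The rule used no measured values, but it was set with earlier results of these data known.

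Both lines were established from human liver tumours, and sorafenib is an oral multikinase inhibitor used against hepatocellular carcinoma. All 12 samples are labelled with a wild-type genotype. The resistant cells of each line had been exposed for 8 months to sorafenib that started at 10 μmol and was then raised stepwise, and the sensitive, parental cells had not. Each of the 4 groups, Huh7 resistant, Huh7 parental, HepG2 resistant and HepG2 parental, held 3 samples, and whether these were separate cultures is not stated, so the p-values below measure the spread between these samples, which may be technical. Whether a resistant line is 1 clone is not given in the sources used here, and resistance and drug exposure cannot be told apart. Expression was given as FPKM, that is, counted reads or fragments scaled by exon length and library total. The reads behind a sample numbered from 12290140 to 19285966. Of 12 hepatocyte lineage genes, 12 were tested in both lines, and their summed level was 6930 to 7226 FPKM in Huh7 resistant, 8570 to 10424 in Huh7 parental, 6781 to 7431 in HepG2 resistant and 7278 to 8276 in HepG2 parental samples. The sums of 7 fibroblast, 6 leukocyte and 5 endothelial markers did not exceed 5.38, 8.52 and 3.68 FPKM in any sample, and LUM in HepG2 resistant, CD68 in Huh7 parental and KDR in HepG2 parental samples were at 0 throughout.

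The spliceosome assembles stepwise. The U1 particle binds the 5′ splice site, U2AF reads the polypyrimidine tract and the 3′ splice site, and the U2 particle with SF3A and SF3B settles on the branch point, all on a ring of Sm proteins that holds each small nuclear RNA. SR proteins mostly promote the use of nearby exons and hnRNP proteins often oppose it, and the THO complex with the helicases DDX39A and DDX39B loads the spliced mRNA onto the receptor NXF1-NXT1.

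The listed levels ranged widely between members. HNRNPC, which binds uridine tracts, and SF3B5, a small subunit of SF3B, had the highest listed levels, with HNRNPC at 149 ± 16.8 FPKM in Huh7 resistant cells and SF3B5 at 192 ± 31.3 FPKM (mean ± SD, n = 3). By contrast, several members that nearly all cells use were listed close to 0. SRSF2, a founding SR protein, did not exceed 0.240 FPKM in any sample, and SRSF5 did not exceed 0.182 FPKM. More than 50% of the exon bases of 16 members lay inside the span of another listed gene on the same strand. Among them were HNRNPA1, HNRNPH2 and SRSF3 (100% each), SNRPN (89.7%) and HNRNPA2B1 (89.1%). On either strand this held for 25 members, among them SRSF9 and SNRPF (100% each), HNRNPL (81.0%) and U2AF2 (57.2%). The mean level over the 12 samples had a median of 5.97 FPKM among these 25 and of 17.2 FPKM among the other 46. The libraries came from a kit that does not keep strand, so reads of overlapping genes on opposite strands cannot be told apart, and the part of this overlap in the low values was not tested. HNRNPA0, which has no overlapping listed gene, was also low (0.541 to 1.41 FPKM). U2AF1, HNRNPA1 and HNRNPA3 have near-identical copies elsewhere in the genome, and how reads matching several places were counted is not given in the sources used here, so their levels are uncertain. A level is therefore best compared between samples for the same gene. Only genes that reached 1 FPKM in 3 or more samples were tested, which kept 61 members in Huh7, 60 in HepG2 and 65 when all 12 samples were fitted together. The 6 members tested nowhere were SF3B6, SRSF2, SRSF5, HNRNPCL1, HNRNPCL2 and HNRNPUL2-BSCL2. For the last 3, no sample held more than 1 read.

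The first comparison asked which of these genes differed between resistant and parental Huh7 cells. Most of the SF3A and SF3B subunits, U2AF2 and 5 Sm proteins were higher in resistant cells, whereas most SR proteins, 11 hnRNP proteins and the THO subunits THOC1 and THOC2 were lower. Of the 61 members tested, 26 were higher, 22 lower and 13 did not pass (limma on log2(FPKM + 1), Benjamini-Hochberg adjusted p under 0.05). Among all 12554 genes tested, 32.7% were higher and 37.4% lower, so the members' counts, 42.6% and 36.1%, are to be read against a background in which most genes passed. The counts of role groups in Huh7 below stand against the same background. With the GC trend described below removed, that background was 27.4% higher and 36.1% lower. Beyond a log2 change of 1, that is a doubling or halving of FPKM + 1, there were 5 higher and 5 lower members, against a background of 8.59% higher and 14% lower. In 28 members the 3 resistant samples all lay above the 3 parental ones, and in 21 all below (background 35.2% and 39.2%). The median log2 change was 0.22 over the members tested and -0.039 over all genes tested. With samples left out singly, 21 of the 26 higher and 18 of the 22 lower members passed in all 6 fits, and the calls of HNRNPF, SNRPB2, HNRNPDL, HNRNPH3 and THOC3 were among those lost in some. In such bulk RNA, fewer cells that express a gene and less RNA of it per cell cannot be told apart.

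**Figure D1:**
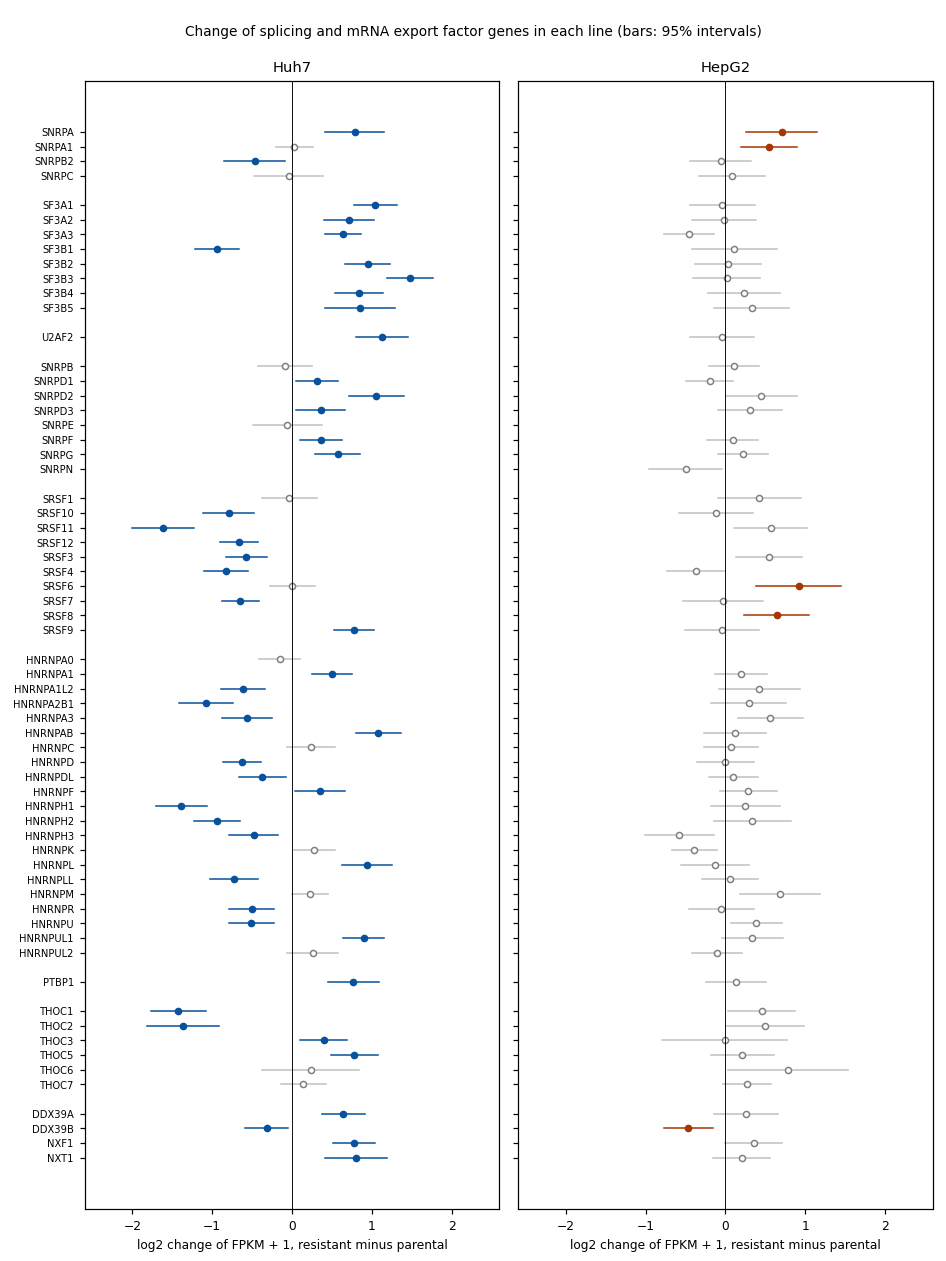
Log2 change of FPKM + 1 in resistant against parental cells (x axis) for each tested gene (rows, grouped by role from the U1 and U2 proteins at the top to the export factors at the bottom), Huh7 on the left and HepG2 on the right. Points are estimates, bars 95% intervals, and filled points have an adjusted p under 0.05. In Huh7, 48 points are filled on both sides of 0, and in HepG2 5 are.

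SF3A and SF3B form the part of the U2 particle that grips the branch point, and 7 of their 8 tested subunits rose in resistant Huh7 cells. With the GC trend described below removed, 5 of the 8 were higher and 1 was lower, and SF3A2 and SF3B5 no longer passed. SF3B3, a scaffold subunit of SF3B, was listed at 95.5, 84.1 and 83.4 FPKM in the 3 resistant samples and at 35.2, 30.7 and 27.1 FPKM in the parental ones. The groups were far apart, and the log2 change was 1.48 (SE 0.12, adjusted p = 4.21e-05), the largest rise among the members tested in Huh7. SF3A1, the largest SF3A subunit, was at 73.0, 64.6 and 69.7 FPKM in resistant and 37.1, 32.7 and 29.5 FPKM in parental samples, without overlap, a change of 1.04 (SE 0.12, adjusted p = 1.26e-04). SF3B2, SF3B5, SF3B4, SF3A2 and SF3A3 rose by between 0.64 and 0.95 on the log2 scale. SF3B1, the subunit that encloses the branch point and is recurrently mutated in several cancers, moved the other way. It was at 17.3, 19.9 and 18.3 FPKM in resistant and 32.4, 35.4 and 41.4 FPKM in parental samples, a change of -0.94 (SE 0.12, adjusted p = 2.22e-04). The resistant group thus lay entirely above the parental one in 7 subunits and entirely below it in SF3B1. The ninth subunit, SF3B6, was listed at 0.554 ± 0.0300 FPKM in resistant and 0.736 ± 0.190 FPKM in parental cells and was not tested.

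U2AF2, the large U2AF subunit that reads the polypyrimidine tract, was at 59.8, 51.2 and 53.2 FPKM in resistant and 29.8, 23.6 and 20.9 FPKM in parental Huh7 samples, with a change of 1.13 (SE 0.14, adjusted p = 2.11e-04). Its partner U2AF1 stayed below the filter and was listed at 1.82, 1.30 and 0.966 FPKM in resistant and 0.777, 0.208 and 0.195 FPKM in parental samples. Of the 4 proteins particular to the U1 or U2 particle, SNRPA, whose protein binds the U1 RNA, rose by 0.79 (SE 0.16, adjusted p = 0.00252), SNRPB2, whose protein binds the U2 RNA, fell by 0.47 (adjusted p = 0.0344), and SNRPA1 and SNRPC did not pass, with changes of 0.031 and -0.043. Among the Sm proteins, 5 of 7 tested were higher and none was lower (limma; 0 at an unadjusted p under 0.05, 0 with limma-voom and 1, SNRPB, with the GC trend described below removed). SNRPD2, which encodes SmD2, was at 75.0, 64.1 and 82.1 FPKM in resistant and 41.2, 34.9 and 29.1 FPKM in parental samples, a change of 1.06 (SE 0.15, adjusted p = 3.82e-04). SNRPG, SNRPF, SNRPD3 and SNRPD1 rose by 0.57, 0.36, 0.36 and 0.32, the last 3 with calls that held in 1 or 2 of the 6 fits with a sample left out. SNRPB and SNRPE, with -0.086 and -0.057, did not pass, and SNRPB was lower with the GC trend removed (-0.70, adjusted p = 0.00297). Both were listed near 1 FPKM, and 92.9% and 65.3% of their exon bases lie in the span of another listed gene on the same strand.

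Of the 9 SR proteins tested, 6 fell and 1 rose, a balance that turned to 2 lower and 3 higher with the GC trend removed. SRSF11, an SR protein found with U2AF2, was at 2.20, 3.03 and 2.06 FPKM in resistant and 7.58, 9.46 and 11.6 FPKM in parental samples, and its change of -1.61 (SE 0.17, adjusted p = 9.70e-05) was the largest fall among the members tested in Huh7. A share of 83.9% of its exon bases lies in the span of another listed gene on the same strand. SRSF4, SRSF10, SRSF12, SRSF7 and SRSF3 changed by -0.83, -0.79, -0.66, -0.65 and -0.57. SRSF9 was the one that rose, from 8.14, 6.58 and 7.65 FPKM in parental to 14.1, 13.6 and 12.7 FPKM in resistant samples, a change of 0.78 (SE 0.11, adjusted p = 3.70e-04). On either strand, 100% of its exon bases lie in the span of another listed gene, and the libraries do not keep strand. SRSF1, the best studied SR protein and an oncogene in several tissues, and SRSF6 had changes of -0.033 and 0.0054 and did not pass, with 95% intervals of -0.38 to 0.31 and -0.27 to 0.28. Both passed as higher with the GC trend removed, at 0.38 (adjusted p = 0.0238) and 0.57 (adjusted p = 0.00418).

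Among 21 hnRNP proteins tested in Huh7, 5 rose and 11 fell, against 8 higher and 5 lower with the GC trend removed. Over all genes, 32.7% were higher and 37.4% lower, and 27.4% and 36.1% with the GC trend removed. HNRNPH1, which binds G-rich runs, was at 15.7, 20.9 and 15.9 FPKM in resistant and 43.0, 46.1 and 52.5 FPKM in parental samples, so that the groups lay far apart, with a change of -1.39 (SE 0.14, adjusted p = 8.06e-05). HNRNPA2B1, which reads UAG-containing elements and sorts RNA for transport, was at 7.61, 10.4 and 7.58 FPKM against 16.7, 18.7 and 21.5 FPKM, a change of -1.08 (SE 0.15, adjusted p = 3.03e-04). HNRNPH2, HNRNPLL, HNRNPD and HNRNPA1L2 fell by between 0.62 and 0.94, and HNRNPA3, HNRNPU, HNRNPR, HNRNPH3 and HNRNPDL by between 0.37 and 0.56. HNRNPAB, whose protein binds AU-rich RNA, showed the strongest rise of the family, with 13.0, 11.8 and 13.1 FPKM in resistant and 6.47, 5.04 and 4.94 FPKM in parental samples and a change of 1.08 (SE 0.12, adjusted p = 1.31e-04). HNRNPL, HNRNPUL1, HNRNPA1 and HNRNPF rose by 0.94, 0.90, 0.50 and 0.36. PTBP1, a repressor of many alternative exons and formally hnRNP I, rose by 0.77 (SE 0.14, adjusted p = 0.00131), from 32.7, 28.3 and 24.1 FPKM to 51.8, 42.7 and 52.2 FPKM. Its neuronal relative PTBP2 stayed under the filter, at 0.273, 0.244 and 0.167 FPKM in resistant and 0.879, 1.45 and 2.02 FPKM in parental samples, which did not overlap.

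The THO complex split. THOC1 was at 3.57, 3.79 and 2.93 FPKM in resistant and 8.96, 10.9 and 13.2 FPKM in parental samples, a change of -1.43 (SE 0.15, adjusted p = 9.96e-05). THOC2, the largest THO subunit, was at 5.61, 5.15 and 4.18 FPKM and 10.8, 14.0 and 19.3 FPKM, a change of -1.37 (SE 0.19, adjusted p = 3.74e-04). For both genes, each resistant sample lay below each parental one. THOC5 and THOC3 rose by 0.78 and 0.40, and THOC6 and THOC7 did not pass, with 0.23 and 0.14. Of the export factors, DDX39A, NXF1 and NXT1 rose by 0.65, 0.77 and 0.80, while DDX39B (UAP56), the main helicase that recruits the export machinery, fell by 0.32 (adjusted p = 0.0399), and passed in 2 of 6 fits when samples were left out singly. Its change was -0.61 with the GC trend removed (adjusted p = 0.00122). DDX39A was then at 0.045 (adjusted p = 0.576), and NXF1, but not NXT1, still passed.

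**Figure D2:**
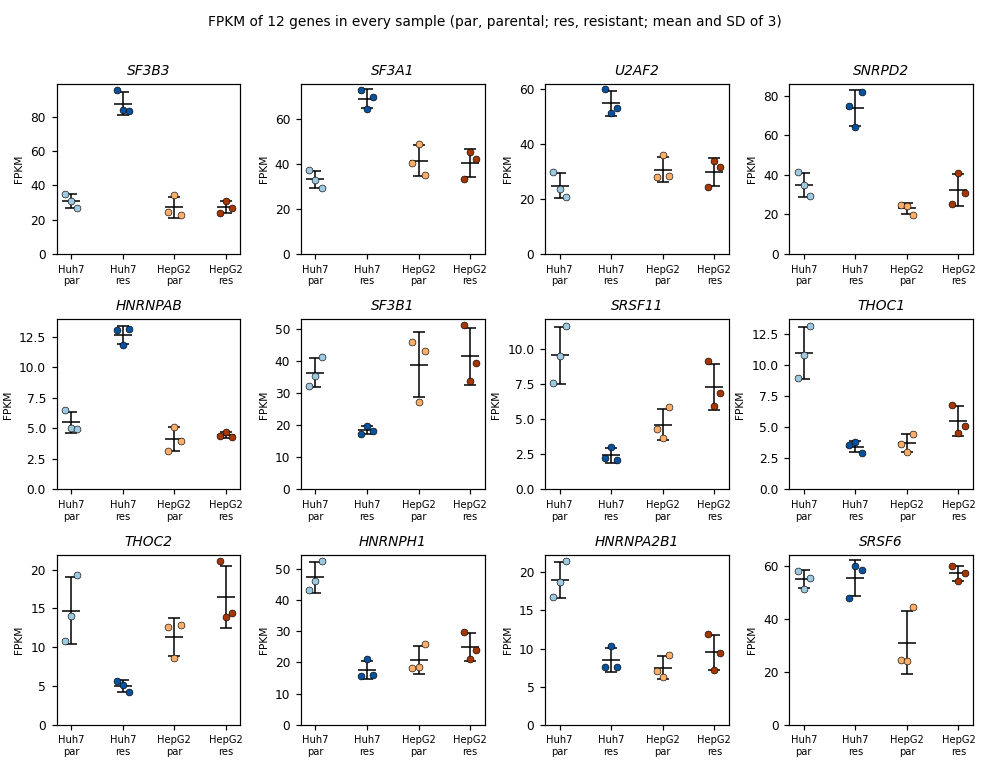
FPKM (y axis, from 0) of 12 genes in each of the 12 samples, by group (x axis, par for parental and res for resistant). Points are samples, and the bars give the mean and SD of 3. The Huh7 groups are apart for every gene shown but SRSF6, and the HepG2 groups overlap for 7 of the 12.

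The Huh7 changes moved with base composition. The Spearman correlation of the log2 change with the GC content of a gene's exons was 0.69 across the 61 members and 0.63 across 12545 genes, given as a description, since genes of 1 set of libraries share depth and preparation. Of the 26 members at or above the median GC content of the genes tested, 46.6%, 20 were higher and 1 lower. Of the 35 below it, 6 were higher and 21 lower. The SR proteins had a median GC content of 41.5%, the hnRNP proteins one of 42.9%, and the SF3A and SF3B subunits one of 50.5%. When the trend of each library against GC content was taken off, 25 members were higher and 12 lower (27.4% and 36.1% of all genes then). Of the 26 members higher before, 17 passed in the same direction, and of the 22 lower before, 10 did. HNRNPR and HNRNPU, lower before, then passed as higher (0.46 and 0.30). SF3B3 (1.29, adjusted p = 8.13e-05), HNRNPH1 (-1.23, adjusted p = 9.29e-05), SRSF9 (0.92) and SF3A3 (0.57) changed little, and their GC contents were 48.0%, 44.5%, 44.6% and 46.5%. SF3A1, SF3B2, SF3B4 and U2AF2 also passed as higher, and SF3B1, SRSF11, SRSF4, HNRNPA2B1, HNRNPH2, THOC1 and THOC2 as lower, at smaller sizes, and DDX39B as lower at a larger one. Of the 13 members that had not passed, 6 then passed as higher, HNRNPC (0.96), HNRNPK (0.90), SRSF6, SRSF1, SNRPA1 (0.33) and THOC7 (0.27), and 2 as lower, SNRPB and HNRNPM (-0.26). The higher members whose calls were lost were PTBP1, NXT1, DDX39A, SNRPA, SNRPD3, SF3A2, SF3B5, THOC3 and HNRNPF. The lower ones were SRSF3, SRSF7, SRSF10, SRSF12, SNRPB2, HNRNPLL, HNRNPD, HNRNPA3, HNRNPH3 and HNRNPDL. The low-GC Sm genes SNRPF (34.9%) and SNRPG (40.3%) instead went up to 1.35 and 1.12. The part of base composition in these differences was not tested further.

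**Figure D3:**
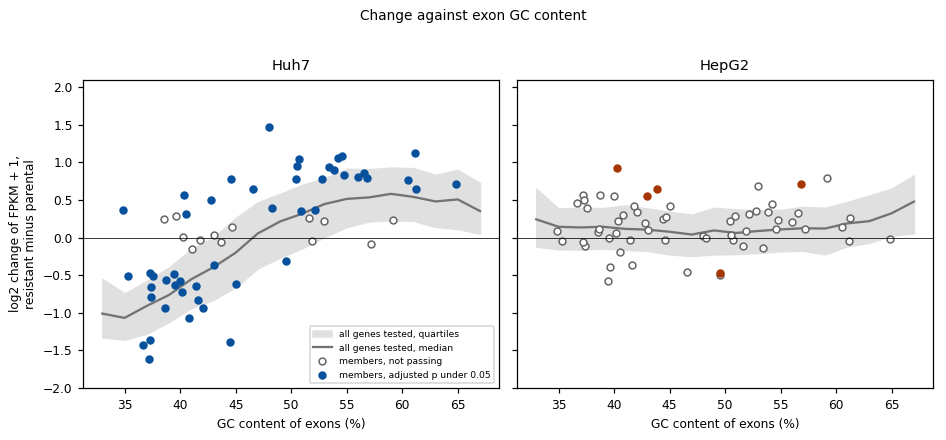
Log2 change (y axis) against exon GC content in percent (x axis) for the tested members (points, filled where the adjusted p was under 0.05), over the median (line) and quartiles (band) of all genes tested in bins of GC content. Members follow the rising line in Huh7 (rho 0.69 across members). In HepG2 (rho 0.059 across members) the line lies at 0.24 at 32% to 34% GC, 0.040 at 46% to 48% and 0.48 at 66% to 68%.

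**Figure D4:**
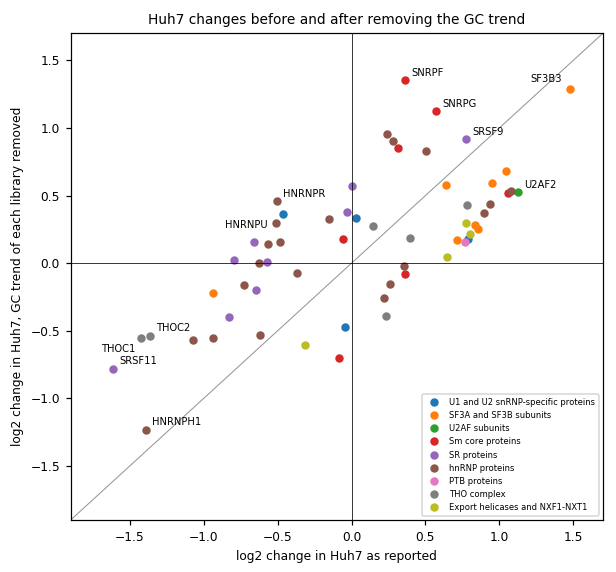
Log2 change in Huh7 as reported (x axis) and after each library's GC trend was taken off (y axis) for the 61 members tested, coloured by role, with a line where both are equal. SF3B3 and HNRNPH1 stay close to the line, SNRPF and SNRPG rise above it, and HNRNPR and HNRNPU cross 0.

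Promoter sequence is shown for the 3 members with the largest rise and the 3 with the largest fall in Huh7 that had an entry among the RefSeq promoters of GRCh38.p14, and for the helicase pair DDX39A and DDX39B compared below. Of the 71 members, 66 had an entry, and HNRNPA1, SF3B3, SNRPD1, SRSF2 and THOC7 had none. Each line gives the 250 bases before the transcription start, 5′ to 3′. Capitals mark the CCAAT box (CCAAT), the GC box (GGGCGG) and the ETS core (CCGGAAG) on either strand, so the reverse complements are in capitals too. Overlapping matches run together, and the 3 motifs do not contain each other. The stretches are at chr19:55654785-55655034 (plus strand) for U2AF2, chr5:178204283-178204532 (plus strand) for HNRNPAB, chr19:45692317-45692566 (minus strand) for SNRPD2, chr1:70221130-70221379 (plus strand) for SRSF11, chr18:268048-268297 (minus strand) for THOC1, chr5:179634785-179635034 (minus strand) for HNRNPH1, chr19:14419384-14419633 (minus strand) for DDX39A and chr6:31542004-31542253 (minus strand) for DDX39B.
U2AF2: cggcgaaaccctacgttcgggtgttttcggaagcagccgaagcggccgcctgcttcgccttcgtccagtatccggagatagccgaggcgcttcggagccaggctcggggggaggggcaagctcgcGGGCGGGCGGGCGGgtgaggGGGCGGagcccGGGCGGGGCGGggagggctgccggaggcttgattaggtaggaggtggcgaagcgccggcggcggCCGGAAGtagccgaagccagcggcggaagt
HNRNPAB: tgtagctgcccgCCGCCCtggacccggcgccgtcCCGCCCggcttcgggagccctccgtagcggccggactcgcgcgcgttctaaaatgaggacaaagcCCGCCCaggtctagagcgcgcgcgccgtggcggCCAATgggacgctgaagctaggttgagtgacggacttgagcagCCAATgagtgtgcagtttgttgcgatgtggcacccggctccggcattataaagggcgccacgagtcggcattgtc
SNRPD2: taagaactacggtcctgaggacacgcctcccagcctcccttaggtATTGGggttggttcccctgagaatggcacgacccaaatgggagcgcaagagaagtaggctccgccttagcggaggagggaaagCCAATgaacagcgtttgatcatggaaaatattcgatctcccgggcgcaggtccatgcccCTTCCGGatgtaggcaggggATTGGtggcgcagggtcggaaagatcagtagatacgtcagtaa
SRSF11: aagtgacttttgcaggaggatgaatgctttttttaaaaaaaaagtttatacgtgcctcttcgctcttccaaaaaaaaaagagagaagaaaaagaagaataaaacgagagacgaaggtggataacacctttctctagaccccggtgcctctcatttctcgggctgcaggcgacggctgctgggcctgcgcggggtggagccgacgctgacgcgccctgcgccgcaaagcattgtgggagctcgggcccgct
THOC1: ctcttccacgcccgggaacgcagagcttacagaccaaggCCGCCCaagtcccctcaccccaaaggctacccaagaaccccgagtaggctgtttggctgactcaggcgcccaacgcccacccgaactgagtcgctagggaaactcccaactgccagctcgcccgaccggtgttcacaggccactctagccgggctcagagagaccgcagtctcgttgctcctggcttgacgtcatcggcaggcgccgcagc
HNRNPH1: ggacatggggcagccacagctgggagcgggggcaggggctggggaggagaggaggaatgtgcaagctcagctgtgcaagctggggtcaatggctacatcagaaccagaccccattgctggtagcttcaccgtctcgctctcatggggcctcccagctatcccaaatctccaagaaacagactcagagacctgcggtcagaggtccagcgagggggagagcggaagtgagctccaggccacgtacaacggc
DDX39A: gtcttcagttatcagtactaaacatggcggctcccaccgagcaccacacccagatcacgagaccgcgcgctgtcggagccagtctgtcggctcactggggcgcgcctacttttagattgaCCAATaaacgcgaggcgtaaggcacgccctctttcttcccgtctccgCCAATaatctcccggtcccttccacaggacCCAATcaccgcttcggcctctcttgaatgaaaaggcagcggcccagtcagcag
DDX39B: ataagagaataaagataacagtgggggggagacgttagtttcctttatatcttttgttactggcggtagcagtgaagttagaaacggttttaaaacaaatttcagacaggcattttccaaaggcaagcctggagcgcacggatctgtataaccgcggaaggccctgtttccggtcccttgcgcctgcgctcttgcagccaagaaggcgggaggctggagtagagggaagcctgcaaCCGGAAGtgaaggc
The 3 rising genes held 6, 3 and 0 GC boxes, and the falling genes SRSF11, THOC1 and HNRNPH1 held 0, 1 and 0. The CCAAT box occurred 3 times before DDX39A and 0 times before DDX39B. Over the 66 members with an entry, 63.6% had a GC box, 40.9% a CCAAT box and 34.8% an ETS core. The same shares were 42.3%, 33.0% and 8.82% over all 27305 promoters and 67.0%, 35.4% and 16.8% over the 8631 promoters of genes tested in Huh7. These matches describe letters in this window and nothing about a factor.

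The same question was put to HepG2, where few members passed. Of 60 tested, 4 were higher, 1 was lower and 55 did not pass, against a background of 11.6% higher and 8.43% lower among 11762 genes. No member passed with a log2 change beyond 1 (limma; 0 at an unadjusted p under 0.05 and 1 with limma-voom, background 3.29% higher and 2.98% lower). At an unadjusted p under 0.05 and any size, 13 were higher and 6 lower. The share of all genes at that threshold is not given here. The unadjusted counts, here and for the role groups, therefore have no background beside them. Limma-voom gave 8 higher and 4 lower (14.7% and 10.1% of all genes then). Upper-quartile or median-ratio scaling gave 2 and 4 (9.22% and 10.2%, and 8.43% and 10.9%). Removal of the GC trend gave 15 and 4 (23.2% and 13.9%). The resistant samples lay entirely above the parental ones in 16 members and entirely below in 6 (background 24.9% and 15.5%). The median log2 change was 0.16 for the members and 0.12 for all genes tested. The Spearman correlation with GC content was 0.059 across the 60 members. Such a rank correlation can miss a bend. Over all genes, the median change was 0.24 at 32% to 34% GC, 0.040 at 46% to 48% and 0.48 at 66% to 68%.

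SRSF6, an SR protein, was at 60.0, 54.5 and 57.3 FPKM in resistant and 24.4, 24.2 and 44.6 FPKM in parental HepG2 samples. The third parental sample lay nearer to the resistant ones, and the change was 0.92 (SE 0.23, adjusted p = 0.0275). SRSF8, a retrogene-derived relative of SRSF2, was at 2.18, 1.91 and 2.09 FPKM and 0.700, 0.788 and 1.47 FPKM, a change of 0.65 (SE 0.18, adjusted p = 0.0366). SNRPA was at 17.0, 28.4 and 25.0 FPKM and 13.1, 15.2 and 12.8 FPKM, a change of 0.71 (SE 0.20, adjusted p = 0.0380). SNRPA1, the partner of SNRPB2 in the U2 particle, was at 13.6, 11.5 and 10.1 FPKM and 7.64, 6.94 and 8.40 FPKM, a change of 0.55 (SE 0.15, adjusted p = 0.0395). In all 4 genes every resistant sample exceeded every parental one. DDX39B was the 1 lower member, at 17.9, 14.8 and 18.0 FPKM in resistant and 22.8, 23.7 and 24.4 FPKM in parental samples, a change of -0.47 (SE 0.13, adjusted p = 0.0440). These calls rest on few samples, since with samples left out singly SRSF6, SRSF8 and SNRPA passed in 1 of 6 fits and SNRPA1 and DDX39B in 0, and 0 members were higher without HepG2 resistant replicate 2, resistant replicate 3, parental replicate 1 or parental replicate 2.

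The SF3A and SF3B subunits had changes in HepG2 from -0.46 (SF3A3, adjusted p = 0.0502) to 0.33 (SF3B5). None of the 8 passed (1 lower at an unadjusted p under 0.05, with limma-voom and with the GC trend removed). SF3B3 was at 24.0, 31.2 and 27.0 FPKM in resistant and 24.7, 34.4 and 23.0 FPKM in parental samples, with an interval for the log2 change of -0.40 to 0.44. None of the 20 hnRNP proteins passed (3 higher and 2 lower unadjusted, 2 and 1 with limma-voom, 4 and 1 with the GC trend removed), with the extremes at HNRNPM (0.69), a splicing regulator of the epithelial-mesenchymal switch, and HNRNPH3 (-0.58). The THO genes ranged from -0.011 (THOC3) to 0.79 (THOC6) and none of the 6 passed (3 higher unadjusted, 0 with limma-voom). With the GC trend removed, THOC1 (0.45, adjusted p = 0.0100), THOC2 (0.50, adjusted p = 0.0111) and THOC7 (0.31, adjusted p = 0.0333) passed as higher, with sizes close to those before. THOC3 and THOC6 each had 1 sample far from the rest of its group, THOC3 with 4.85, 11.0 and 3.15 FPKM in parental and THOC6 with 5.94, 16.6 and 15.2 FPKM in resistant samples.

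A direct comparison of the changes, the interaction in the fit of all 12 samples, asked whether a gene's change differed between the lines. Here a positive value means a more positive change in HepG2. Of 65 members tested, 19 were positive and 15 negative (background 33.2% and 23.1% of 13800 genes), and 11 and 5 of them exceeded 1 on the log2 scale (background 18.2% and 10.6%). The 5 largest were SRSF11 (2.18, adjusted p = 9.66e-05), THOC1 (1.88, adjusted p = 1.08e-04), THOC2 (1.87, adjusted p = 5.43e-04), HNRNPH1 (1.64, adjusted p = 2.40e-04) and SF3B3 (-1.46, adjusted p = 3.01e-04). For the first 4, expression fell in resistant Huh7 cells, and in HepG2 the estimates were above 0 without passing (0.25 to 0.57). SF3B3 rose in Huh7 and had an estimate of 0.017 in HepG2. Among the SF3A and SF3B subunits, 5 interactions were negative, those of SF3B3, SF3A3, SF3A1, SF3B2 and SF3A2, and that of SF3B1 was positive (1.05). With the GC trend removed, the interaction of SRSF11 was 1.38, of HNRNPH1 1.53 and of SF3B3 -1.24, all still past the threshold, and that of SF3B1, 0.35, was not (adjusted p = 0.0892). The counts were then 14 positive and 18 negative (35.4% and 21.7% of all genes then). Median-ratio scaling moved the median of all genes in this contrast from 0.15 to 0.026. The counts of members moved to 16 positive and 25 negative (28.4% and 28.2% of all genes then).

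The parental lines were compared in the same fit. HepG2 parental cells were lower than Huh7 parental cells in 27 and higher in 11 of the 65 members tested (background 39.8% and 27.4%), and beyond 1 on the log2 scale in 5 and 2 (18.3% and 11.9%). The groups did not overlap in 26 lower and 11 higher members (background 40.7% and 28%). SRSF12, an SR protein that opposes splicing, was at 0.335, 0.0716 and 0.182 FPKM in HepG2 and 2.61, 2.35 and 2.71 FPKM in Huh7, a difference of -1.58 (SE 0.10, adjusted p = 7.74e-08). THOC1, HNRNPA2B1, HNRNPH1 and THOC5 followed with -1.34, -1.24, -1.16 and -1.05. In the other direction, SNRPN, an imprinted gene for a tissue-specific Sm protein, was at 1.00, 1.98 and 1.54 FPKM in HepG2 and 0.0326, 0.0521 and 0.0181 FPKM in Huh7. Only 6 reads in the 3 Huh7 libraries lay behind it, against 211 in HepG2, a 43.5-fold ratio of reads per library total with an exact 95% counting interval of 19.7 to 120.0 that covers counting error only. Its fitted difference of 1.26 depends on the added 1. HNRNPF, SF3A3, SF3B2 and HNRNPLL were higher by 1.04, 1.00, 0.70 and 0.67. Of the 10 SR proteins tested, 7 were lower in HepG2 and none was higher (limma; 0 at an unadjusted p under 0.05 and with limma-voom). With the GC trend removed, 5 were lower and SRSF4 was higher (0.27, adjusted p = 0.0179). THOC1, HNRNPH1 and HNRNPA2B1 in resistant Huh7 cells, at 3.43 ± 0.444, 17.5 ± 2.99 and 8.52 ± 1.60 FPKM, stood beside 3.73 ± 0.731, 20.8 ± 4.44 and 7.50 ± 1.52 FPKM in HepG2 parental cells (mean ± SD, n = 3 each). Both contrasts use the parental Huh7 samples, so these values are given side by side only. Median-ratio scaling moved the median of all genes here from -0.18 to -0.061. The counts of members moved to 15 higher and 21 lower (31.6% and 35% of all genes then).

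The 8 pairs of related genes were compared as a log2 ratio of FPKM + 1 within each sample. This takes a shared scale out for genes well above 1 FPKM, and only in part for genes near it. The ratio of DDX39A to DDX39B, the paralogous export helicases, was -0.69, -1.06 and -0.66 in resistant and -1.66, -1.95 and -1.69 in parental Huh7 samples, and -2.79, -2.19 and -2.75 in resistant and -3.51, -3.15 and -3.24 in parental HepG2 samples. The resistant samples lay above the parental ones in each line. The mean difference was 0.96 in Huh7 and 0.72 in HepG2 (p = 0.1 in both by a two-sided exact permutation test, which cannot go lower with 3 against 3). Over both lines together, the exact permutation test gave p = 0.005, the smallest of 400 arrangements, and 0.04 after adjustment over the 8 pairs. The level of DDX39A was far below that of DDX39B in HepG2 (1.52 ± 0.374 against 23.7 ± 0.775 FPKM in parental cells). With 0.1 added in place of 1, the difference was 0.88 in HepG2 and 1.10 in Huh7. The GC contents of the pair are 61.2% and 49.5%, and with the GC trend removed the Huh7 difference was 0.65. The Huh7 changes behind it were then 0.045 for DDX39A and -0.61 for DDX39B.

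No other pair passed over both lines. SRSF3 to SRSF7, a pair of small SR proteins that also act in export, came next, with 1.00, 1.04 and 1.06 in resistant and 0.54, 0.52 and 0.30 in parental HepG2 samples, a difference of 0.58 without overlap, and 0.074 in Huh7 (both lines, exact permutation p = 0.015, adjusted 0.06). In Huh7 the largest differences were those of PTBP2 to PTBP1 (-1.74), HNRNPLL to HNRNPL (-1.67) and HNRNPA1 to HNRNPA2B1 (1.58), each without overlap and with exact permutation p = 0.1. These differences were -0.12, -0.60 and 1.39 with the GC trend removed. In HepG2 the same pairs differed by 0.30, 0.19 and -0.10, with exact p-values of 0.4, 0.6 and 0.7. HNRNPH2 to HNRNPH1 differed by 0.45 in Huh7 and 0.085 in HepG2, U2AF1 to U2AF2 by -0.36 and 0.12, and SNRPN to SNRPB by 0.052 and -0.61. PTBP2, U2AF1, SNRPN and SNRPB were at or below about 2 FPKM, so their ratios depend on the added 1. With 0.1 added in its place, the Huh7 difference of U2AF1 to U2AF2 was 0.56.

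**Figure D5:**
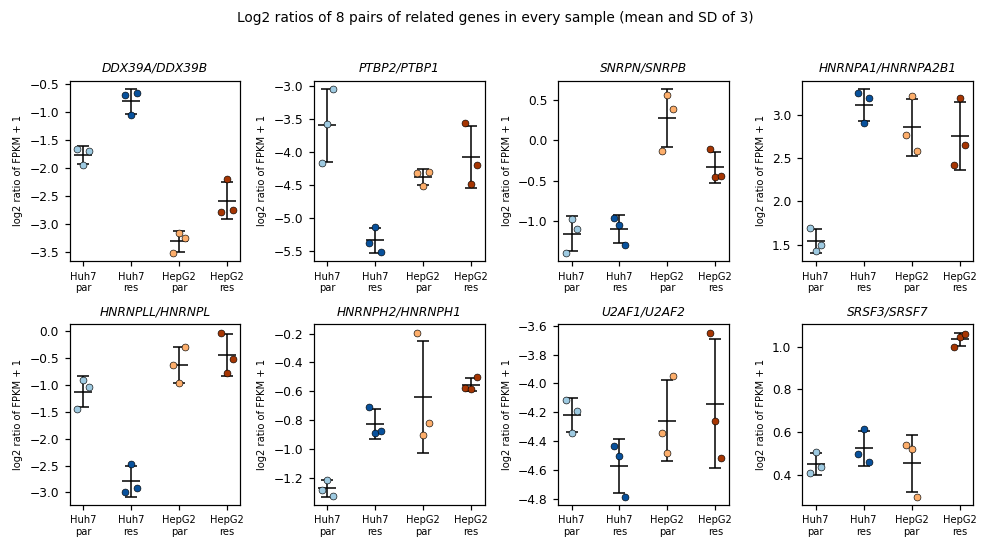
Log2 ratio of FPKM + 1 (y axis) of 8 gene pairs in each sample by group (x axis, par for parental and res for resistant), with points for samples and bars for the mean and SD of 3. For DDX39A/DDX39B, the resistant samples lie above the parental ones in both lines, by 0.96 and 0.72 on average, and for HNRNPA1/HNRNPA2B1 they do so in Huh7 but not in HepG2.

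Other parts of the machinery, listed in the same way, gave a frame for these values. Their counts stand against the same background of all genes tested, 32.7% higher and 37.4% lower in Huh7 and 11.6% and 8.43% in HepG2. How the calls of these lists, here and in the next paragraph, stood with the GC trend removed was not examined. The proteins of the U5 particle and the tri-snRNP, which bring the catalytic centre, had 14 of 15 tested higher and none lower in Huh7 (limma, none lower at an unadjusted p under 0.05 either, median log2 change 0.69), led by PRPF6 at 1.12 (adjusted p = 1.49e-04) and EFTUD2 at 1.05 (adjusted p = 1.47e-04). In HepG2, 3 of the 15 were higher and none lower (1 lower unadjusted). Of the PRP19 complex and factors of the catalytic steps, 6 of 20 were higher and 10 lower in Huh7, with CDC5L at -1.10 (adjusted p = 2.64e-04) and DHX38 at 1.09 (adjusted p = 1.58e-04), against 3 and 2 in HepG2. SR-related proteins had 3 higher and 6 lower of 13 in Huh7, among them SREK1 at -1.56 (adjusted p = 1.42e-04) and PNN at -1.17 (adjusted p = 4.11e-04). In HepG2 they had 3 higher and none lower of 13 (7 higher and 0 lower unadjusted), with RNPS1, a link to the exon junction complex, at 1.12 (adjusted p = 0.00230). The kinases that phosphorylate SR proteins had 1 higher and 4 lower of 8 in Huh7, with CLK4 at -1.17 (adjusted p = 8.87e-05), and none in either direction of 8 in HepG2 (1 higher and 0 lower unadjusted). The SMN complex, which loads Sm proteins, had 5 higher and 2 lower of 12 in Huh7, with GEMIN4 at 1.05 (adjusted p = 4.23e-04) and PRMT5 at 1.04 (adjusted p = 2.91e-04), and 2 higher in HepG2.

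Among other splicing regulators, 6 of 21 were higher (28.6%) and 10 lower (47.6%) in Huh7. MBNL2, a muscleblind protein, was at -2.33 (adjusted p = 6.33e-06) in Huh7 and -1.42 (adjusted p = 0.00417) in HepG2, and was 1 of the 2 lower of 19 tested in HepG2. The epithelial regulator ESRP2 rose by 1.90 (adjusted p = 6.64e-06) in Huh7. The LSM proteins had 1 higher and 1 lower of 8 and the exon junction complex 2 and 2 of 5 in Huh7, and neither list had a call in HepG2, also at an unadjusted p under 0.05. Other export factors had 7 higher and 6 lower of 19 in Huh7 (36.8% and 31.6%, near the background), with the nuclear basket protein TPR at -1.47 (adjusted p = 7.94e-04), and 1 of each in HepG2, with CETN2 at 1.43 (adjusted p = 7.43e-04). Of 12 proliferation genes, 8 rose and 3 fell with resistance in Huh7, and 8 rose in HepG2. Their summed level was 1223 to 1252 FPKM in resistant and 859 to 909 in parental Huh7 samples, and 1094 to 1110 in resistant and 593 to 632 in parental HepG2 samples, with none under 1 FPKM throughout. The part of proliferation in the members' changes was not tested.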

How the data were processed

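RNA was measured in 3 samples per group, from both forms of each line, and groups and replicate numbers came from the sample labels. Per the labels, RNA was isolated with an RNeasy kit, while the study's methods name TRIzol, and libraries were made with a NEBNext Ultra kit that does not mark strand. The submitters' processing notes name GRCh38 and bcl2fastq, and the aligner and counter are not given in the sources used here. Each deposited table lists 27249 Ensembl and 71462 NONCODE genes. The authors deposited 1 value per gene and sample, scaled by exon length and library total, without naming the unit, which was read as FPKM (RPKM cannot be told apart). The reason was that 99.6% to 99.8% of single-exon values times exon length (GENCODE release 29) lay within 0.05 of whole reads. Since no molecular identifiers were used, a read is not 1 molecule, and the counting interval covers counting error only.

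The test was limma (version 3.58.1, R 4.3.3), moderated with a mean trend, on log2(FPKM + 1) of genes that reached 1 FPKM in 3 or more samples, adjusted by Benjamini-Hochberg over all genes tested. A fold change on this scale understates that of low genes. Each line was fitted alone, and the interaction and the parental contrast in all 12 samples. The median tested member had 1001 reads in a sample. The GC trend was a lowess curve (span 0.3). The scripts were tested on simulated data. Replicate numbers were not used as pairs, and whether they pair the samples is not known. Members named were those past the threshold and beyond a log2 change of 1, the extremes of each role group, the 5 largest interactions, the 5 largest parental differences in each direction and the genes of the ratios, and from other lists up to 2 genes per line beyond 1. The remaining names were chosen after their values were seen. The members and lists were chosen with earlier results of these data known. Alternatives were other pseudocounts, filters and scalings, limma-voom on reads calculated back, a fit without the trend, a replicate block, 1 fit of all samples, removal of the GC trend (for the last 2 contrasts also against the mean of all 12 samples, added after seeing the data) and leaving out each sample.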

Additional observations from a re-analysis of the deposited data

Results flagged for a closer look

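The changes of 16 members in resistant cells differed between the lines by more than 1 on the log2 scale, by the interaction in limma with an adjusted p under 0.05. Of the 65 members tested, 16.9% were above 1 and 7.69% below -1. Among all 13800 genes tested the shares were larger, at 18.2% and 10.6%. The change was more positive in HepG2 for SRSF11 (2.18), THOC1 (1.88), THOC2 (1.87), HNRNPH1 (1.64), PTBP2 (1.40), HNRNPA2B1 (1.37), HNRNPH2 (1.28), HNRNPA3 (1.13), SRSF3 (1.12), SF3B1 (1.05) and HNRNPA1L2 (1.04). It was more negative in HepG2 for SF3B3 (-1.46), U2AF2 (-1.17), SF3A3 (-1.10), SF3A1 (-1.08) and HNRNPL (-1.07). Beside these values stand the GC contents of the genes, from 34.7% for PTBP2 to 45.0% for HNRNPA1L2 in the first set and from 46.5% for SF3A3 to 61.2% for U2AF2 in the second. With the GC trend of each library removed, 15 of the 16 kept an adjusted p under 0.05 in the same direction. The exception was SF3B1.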

How the results depend on the processing

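In Huh7, removal of the GC trend gave 12 lower members in place of 22 (36.1% of all genes then). Beyond a log2 change of 1, it gave 3 higher and 1 lower in place of 5 and 5, and limma-voom gave 8 lower. For counts beyond 1 in either line, the shares of all genes under the other settings are not given here. Whether all genes moved alike was not tested. Leaving out 1 sample gave 22 to 26 higher and 18 to 22 lower (26.6% to 36.9% and 30.2% to 39.1% of all genes then). Beyond 1, these fits gave 3 (without Huh7 parental replicate 3) to 7 higher and 4 to 7 lower. In HepG2, the 4 higher and 1 lower members became 0 and 0 with no filter (3.45% and 3.08% of all genes then). Upper-quartile and median-ratio scaling each gave 2 and 4 (9.22% and 10.2%, and 8.43% and 10.9%). Removal of the GC trend gave 15 and 4 (23.2% and 13.9%), and limma-voom 8 and 4 (14.7% and 10.1%). The fit of all samples gave 9 and 5 (20.2% and 12.8%), and 1 FPKM in every sample gave 2 lower (9.16%). Leaving out 1 HepG2 sample gave 0 to 5 higher (2 without resistant replicate 1, 0 without resistant replicate 2 or 3 or parental replicate 1 or 2) and 0 to 1 lower. Over all genes, these fits gave 3.34% to 11.7% higher and 4.03% to 7.81% lower. Beyond 1, a pseudocount of 0.1 and limma-voom each gave 1 higher and 0 lower, and the fits without 1 sample 0 to 1 higher (1 without resistant replicate 1 or parental replicate 3). With the replicate number as a block, HepG2 had 8 higher and 4 lower members (17.9% and 11.1% of all genes then). Whether the numbers pair the samples is not known. Same-numbered samples deviated together with correlations of 0.073, 0.053 and -0.20 in Huh7 and 0.22, 0.39 and -0.011 in HepG2. Differently numbered ones ranged from -0.30 to 0.25 in Huh7 and from -0.39 to 0.19 in HepG2. With 3 samples per group these values cannot decide it. The block moved no other count by more than 1.5 times.

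For the difference between lines, upper-quartile and median-ratio scaling gave 23 and 25 negative members in place of 15 (26.1% and 28.2% of all genes then). Those above 1, 11 before, became 7 with median-ratio scaling and 6 with the GC trend of each library removed. They became 5 with it removed against all 12 samples. Leaving out 1 sample gave 3 to 7 members below -1 (3 without HepG2 resistant replicate 1 or parental replicate 2). Between the parental lines, 1 member was higher beyond 1 with 1 FPKM in every sample or the GC trend removed, 12 were lower with a pseudocount of 0.1 or limma-voom, and leaving out 1 sample gave 1 to 3 higher (1 without Huh7 parental replicate 3 or HepG2 parental replicate 2 or 3) and 5 to 10 lower (10 without HepG2 parental replicate 3). For the counts beyond 1 in both contrasts, the shares of all genes under the other settings are not given here. Whether all genes moved alike was not tested, and neither was the cause of these moves. With the GC trend removed, the estimate changed sign for 17 of 61 members in Huh7, 11 of which had passed, such as SNRPB2 (0.36), SRSF3 (0.0088), SRSF10 (0.021), SRSF12 (0.16), HNRNPD (0.0018), HNRNPA3 (0.14), HNRNPH3 (0.16), HNRNPF (-0.018) and SNRPD3 (-0.082), and for 3 of 60 in HepG2, none of which had passed. In HepG2, HNRNPLL was at -0.018 with upper-quartile and -0.046 with median-ratio scaling, and THOC3 at 0.012 with a pseudocount of 0.1, 0.045 without the GC trend and 0.037 with limma-voom. With 1 sample left out, SNRPB in Huh7 ranged from -0.20 to 0.032, and in HepG2 HNRNPL from -0.28 to 0.029, HNRNPLL from -0.072 to 0.13, SNRPB2 from -0.20 to 0.044, SRSF7 from -0.21 to 0.19, THOC3 from -0.35 to 0.42 and U2AF2 from -0.13 to 0.10, none of which had passed.

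In Huh7, the ratios without the GC trend were 0.65 for DDX39A/DDX39B, -0.12 for PTBP2/PTBP1, 0.37 for SNRPN/SNRPB, 1.39 for HNRNPA1/HNRNPA2B1, -0.60 for HNRNPLL/HNRNPL, 0.68 for HNRNPH2/HNRNPH1, 0.52 for U2AF1/U2AF2 and 0.21 for SRSF3/SRSF7. A pseudocount of 0.1 gave -2.97 for PTBP2/PTBP1, -0.14 for SNRPN/SNRPB, -1.96 for HNRNPLL/HNRNPL and 0.56 for U2AF1/U2AF2 in Huh7, and 0.82 for PTBP2/PTBP1 and -1.08 for SNRPN/SNRPB in HepG2. Without 1 sample, the ratio differences ranged from -0.067 to 0.15 for SNRPN/SNRPB in Huh7, and in HepG2 from -0.32 to 0.081 for HNRNPA1/HNRNPA2B1, from -0.021 to 0.36 for HNRNPLL/HNRNPL, from -0.047 to 0.31 for HNRNPH2/HNRNPH1 and from -0.13 to 0.30 for U2AF1/U2AF2.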
